A study of Homo sapiens with 7 samples.

Results

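The 8 genes CDX1, CDX2, HNF4A, HNF4G, KLF4, KLF5, ELF3 and ISX encode transcription factors of the intestinal epithelium, not all of them restricted to it. Their chromatin was examined in HCT116, a human colorectal carcinoma cell line. They were taken by name, out of 20162 protein-coding genes of the annotation, and every deposited ChIP-seq interval over each gene body and 10 kb on each side of it was collected. In the gut, the homeobox factors CDX1 and CDX2 set intestinal identity, and the nuclear receptors HNF4A and HNF4G act with them on the genes of the absorptive enterocyte. The zinc-finger factors KLF4 and KLF5 are known from differentiated and from proliferating crypt cells respectively, ELF3 is an ETS-family factor of epithelia, and ISX is a homeobox repressor that restrains uptake and cleavage of carotenoids. Trimethylated lysine 4 and acetylated lysine 9 of histone H3 mark active start sites, H3K4me1 marks enhancers and the flanks of promoters, H3K36me3 marks the bodies of transcribed genes, H3K27me3 is the Polycomb mark, and CTCF binds insulators and the anchors of chromatin loops.

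Chromatin of HCT116 cells, grown at 200000 cells per well, was sheared in the wells of culture plates with PIXUL, a plate sonicator, for 6 min in 100 µl, and 1 library was made for each antibody from a single well. No group had a treatment, a time course or a genotype contrast, so each group is an antibody applied to the same line. The peak lists of H3K4me3, H3K9Ac, H3K4me1, H3K36me3, H3K27me3 and CTCF were used, and the H3K27Ac library was not analysed here. With 1 library per mark there was no replicate and no test, the values below carry no error, and an order of 2 values of a mark cannot be separated from the spread between libraries, which is unknown. The depth is unknown as well, since read counts are not part of the lists. Each interval carries a q-value and a fold enrichment, a linear ratio over background, which the methods give as relative to input. An interval is said to pass the limits when its fold enrichment exceeds 2 with q under 1e-03 for H3K4me1 and H3K27me3, or 5 with q under 1e-10 for the other marks. Between 79.1% (H3K4me3) and 0.225% (H3K36me3) of a list passed, so the absence of an H3K36me3 interval past the limits says little. The H3K4me3 list was checked against markers of cell type. All 6 epithelial markers had an H3K4me3 interval past the limits within 1 kb of the transcription start site (TSS). EPCAM was at 30.4, CLDN7 at 29.2, KRT19 at 28.7 and CDH1 at 25.1. Of 9 markers of blood, stroma, endothelium and liver, 1 had such an interval, COL1A1 at 9.21. These markers speak to epithelial cells in that list, and not to the identity of the line or to the other lists.

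The 8 genes fell into 3 kinds of promoter in these lists. CDX2, KLF4, KLF5 and ELF3 carried H3K4me3, H3K9Ac and H3K4me1 together at the TSS of the canonical transcript, as did 43.1% of all protein-coding genes. HNF4A carried H3K4me3 and H3K9Ac there, at low enrichment, and its H3K9Ac interval (6.92) did not pass a fold limit multiplied by 1.5, which left H3K9Ac at 4 genes. CDX1, HNF4G and ISX carried none of the 6 marks past the limits at that TSS, a state shared with 33.9% of the coding genes, but HNF4G had a marked start site far upstream. In counts, H3K4me3 was found at the TSS of 5 of the 8 genes (59.1% of all coding genes), H3K9Ac at 5 (58.5%), H3K4me1 at 4 (49.1%) and CTCF at 1 (13.6%). H3K36me3 and H3K27me3 were past the limits at the TSS of 0 of the 8 genes, beside 0.298% and 1.22% of all coding genes. These shares lay near those of all genes, so the genes do not stand apart as a group by their counts. With any annotated TSS in place of the canonical TSS, 6 of the 8 genes had H3K4me3, beside 61.8% of coding genes.

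Over the wider regions 76 intervals were deposited, of which 34 passed the limits. Past the limits, H3K4me3 had 6 intervals in the regions of 6 genes (69.1% of coding genes have at least 1), H3K9Ac had 7 in 6 genes (68.3%), H3K4me1 had 11 in 8 genes (71.9%) and CTCF had 10 in 6 genes (62.4%). The count per gene ran from 6 at CDX2 and at ELF3, through 5 at HNF4A, HNF4G and KLF5 and 4 at KLF4, to 2 at CDX1 and 1 at ISX. These counts and their order depended on the limits and the region: with all deposited intervals KLF5 came first at 13, and with 50 kb around the gene body ELF3 (14) and HNF4A (13) did. In the gene body alone CDX2 had 3 and CDX1 and ISX 0. At the limits and region used, the count did not follow the length of the region searched, which was 28398 bp at CDX2 and 178921 bp at HNF4G, around a median of 47220 bp over coding genes.

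**Figure D1:**
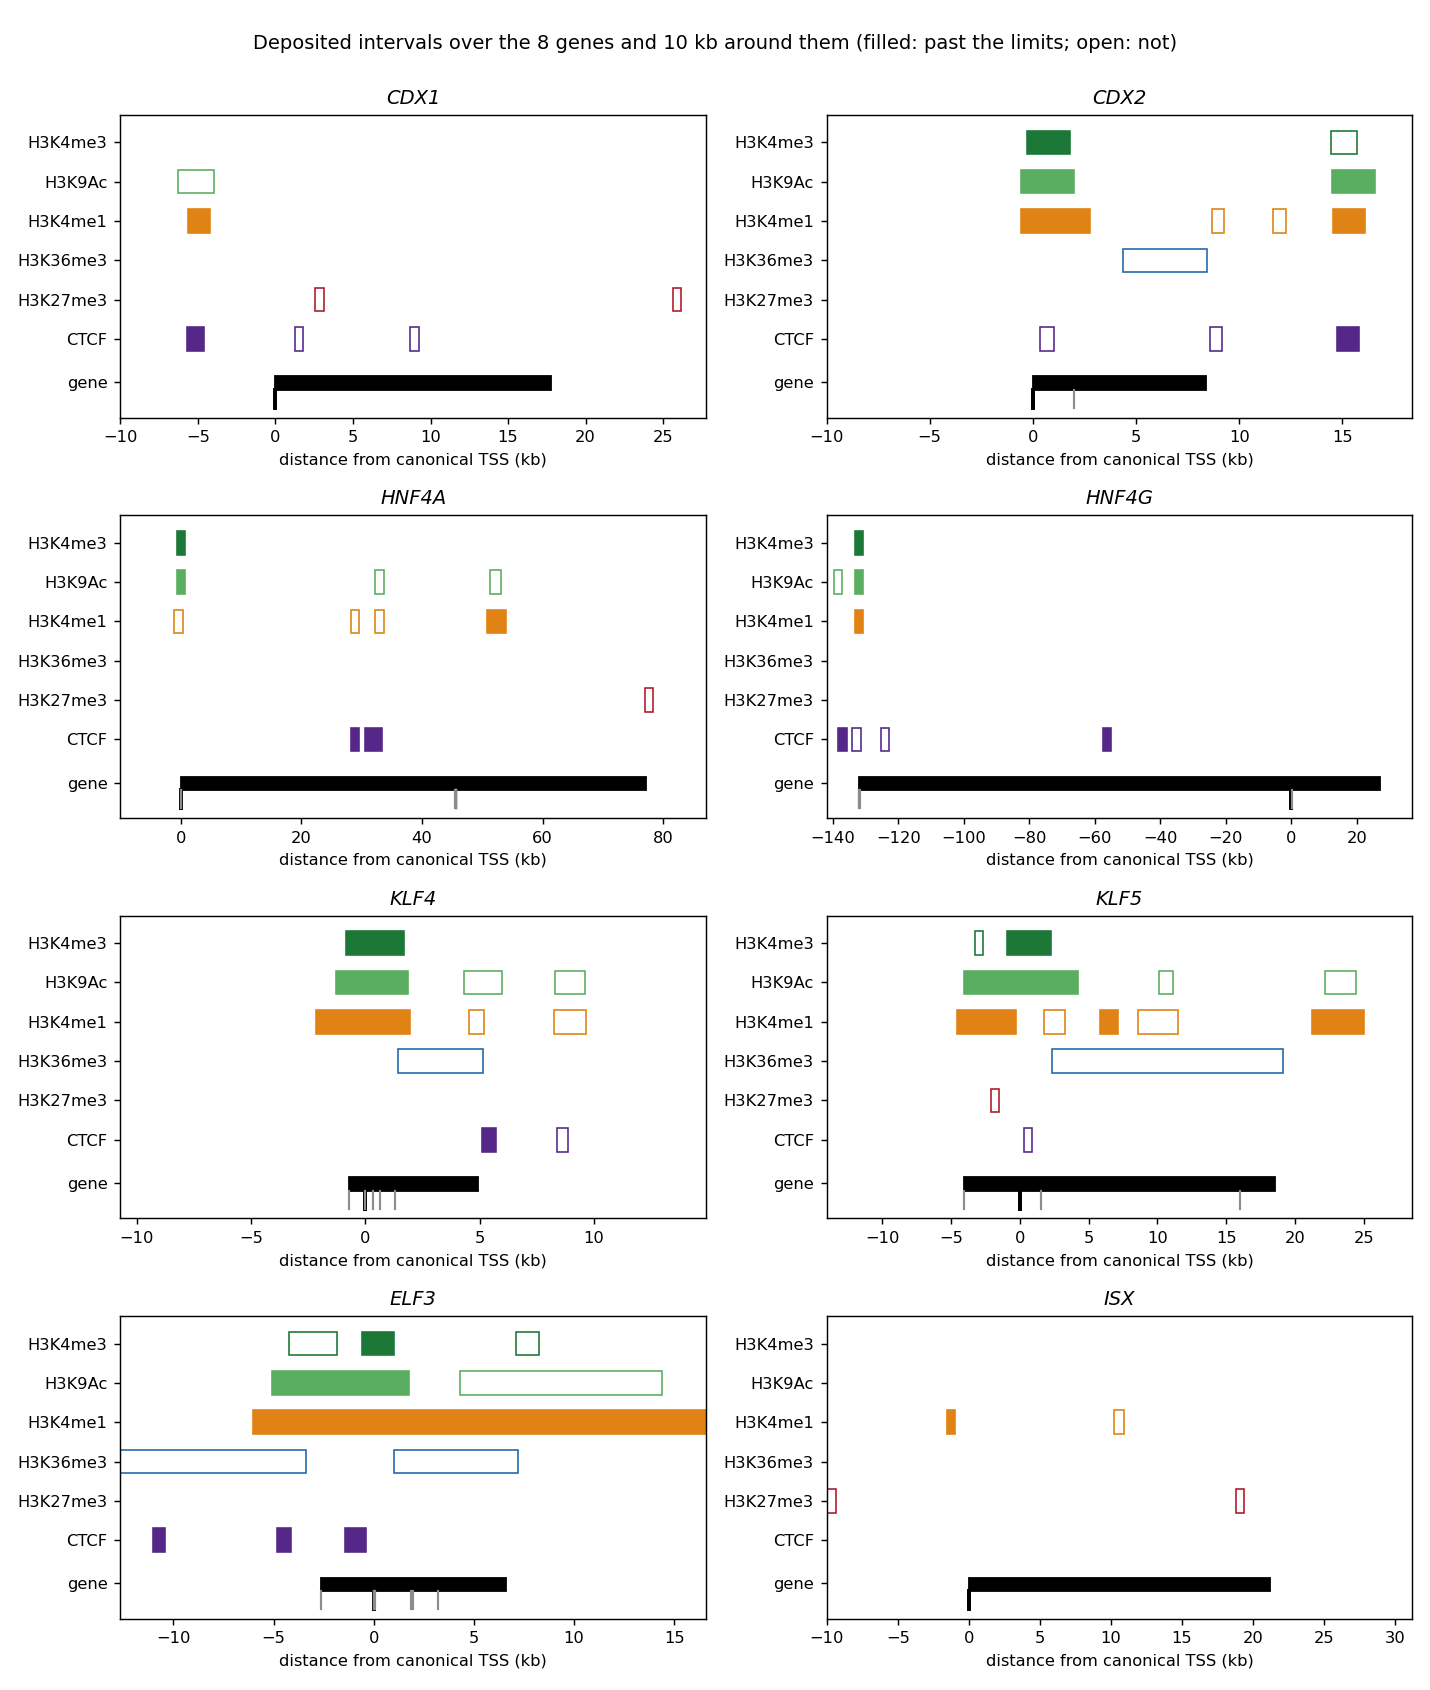
Maps of the 8 genes, with distance from the canonical TSS in kb along the gene's own strand on the horizontal axis and 1 line per mark. Boxes are deposited intervals, filled where they pass the limits and open where they do not, and very narrow boxes are drawn at a minimum width; the black bar is the gene body and ticks below it are annotated start sites (black, canonical; grey, others). CDX1 and ISX have no H3K4me3 box, HNF4G has its only one at the far upstream start sites, and the H3K4me1 box of ELF3 runs past the right edge.

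CDX2 had the start site most enriched for H3K4me3 and H3K9Ac of the 8 genes, whereas that of its paralogue CDX1 was bare. CDX2 (ENSG00000165556) lies at chr13:28535055-28543452 of hg19, on the minus strand. Its H3K4me3 interval, 2048 bp wide, reached from 267 bp upstream to 1780 bp downstream of the TSS, over exon 1 and part of intron 1, enriched 31.6-fold (−log10 q-value 108). That fold enrichment stood at percentile 87.0 of the 11924 coding genes with such an interval, while the width stood near the middle, at percentile 49.2. The H3K9Ac interval there had a fold enrichment of 17.3, at percentile 83.6 of marked genes. H3K4me1 passed its limit only narrowly, at 3.84-fold (−log10 q-value 3.12). Its width, 3329 bp, was at percentile 69.7 of marked genes. The CDX2 start site thus combined high H3K4me3 and H3K9Ac with an H3K4me1 interval of low fold enrichment but not of small width.

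A further marked element lay downstream of CDX2, between 14452 and 16580 bp from its TSS. It held the CTCF interval with the highest fold enrichment of any at the 8 genes, 25.1, which is percentile 98.7 of all CTCF intervals past the limits. H3K9Ac (8.36) and H3K4me1 (6.37) also passed there, whereas H3K4me3, also at 6.37, had a −log10 q-value of 9.07, just short of the limit. The long non-coding RNA LINC00543 is annotated at this position, and its TSS lies within the CTCF, H3K9Ac and H3K4me1 intervals. Signal of the promoter of that RNA and of an element of CDX2 cannot be told apart in the lists.

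CDX1 (ENSG00000113722, chr5:149546341-149564121, plus strand) has a single annotated TSS. No interval of any mark, deposited at the caller's cutoff or past the limits, came within 1 kb of it, and its whole region is without an H3K4me3 interval in the list. The nearest signal past the limits was an upstream element at which 3 marks met. There CTCF was enriched 19.2-fold (−log10 q-value 50.2) in an interval from 5729 to 4579 bp upstream of the TSS, at percentile 94.2 of CTCF intervals past the limits. H3K4me1 passed the limits at 6.10, and H3K9Ac had a fold enrichment of 5.07 with a −log10 q-value of 6.58, which misses them. Within intron 1, CTCF intervals of 3.51 and 6.12 and an H3K27me3 interval of 2.97 with a −log10 q-value of 1.63 were all below the limits. So the CDX1 locus had H3K4me1 and CTCF upstream but no promoter mark, and no H3K27me3 past the limits either.

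The 250 bases upstream of the CDX1 and CDX2 start sites are shown because the bare promoter is the one richer in CpG. They were read from hg19, 5′ to 3′ on the strand of the gene, and CpG dinucleotides are in capitals, 27 at CDX1 (chr5:149546091-149546340, plus strand) and 10 at CDX2 (chr13:28543453-28543702, minus strand).
CDX1: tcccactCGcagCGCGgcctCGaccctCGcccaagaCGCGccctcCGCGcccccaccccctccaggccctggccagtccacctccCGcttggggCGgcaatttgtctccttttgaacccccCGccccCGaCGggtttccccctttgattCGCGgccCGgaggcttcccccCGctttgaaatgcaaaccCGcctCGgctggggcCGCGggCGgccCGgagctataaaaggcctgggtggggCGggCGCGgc
CDX2: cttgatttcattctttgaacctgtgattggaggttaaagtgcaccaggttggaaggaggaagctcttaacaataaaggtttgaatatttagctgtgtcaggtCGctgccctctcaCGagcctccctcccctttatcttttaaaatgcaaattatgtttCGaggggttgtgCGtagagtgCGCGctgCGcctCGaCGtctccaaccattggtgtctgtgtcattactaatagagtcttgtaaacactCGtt

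In a window of 500 bases on each side of the TSS, the observed over expected CpG ratio was 0.782 at CDX1 and 0.694 at CDX2. Of the 2245 coding genes whose ratio fell between 0.75 and 0.8, as at CDX1, 82.9% had an H3K4me3 interval past the limits at the TSS. CDX1 is thus among the minority of genes of its base composition that lacked the mark. The TATA-box letters TATAAA, searched on both strands, occurred in the 250 bases upstream of CDX1 and not in those of CDX2, and in 9.4% of the promoters of 20140 coding genes. The Sp1-type letters GGGCGG occurred at CDX1 and not at CDX2, and in 58.7% of these promoters.

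ISX, the third homeobox gene (ENSG00000175329, chr22:35462129-35483380, plus strand), had the fewest intervals. Its only one past the limits was an H3K4me1 interval of 519 bp, from 1547 to 1029 bp upstream of the TSS, at 3.88-fold (−log10 q-value 3.12), close to the limit and just outside the 1 kb window. A second H3K4me1 interval in intron 2 (3.44) did not pass. The lists of H3K4me3, H3K9Ac, H3K36me3 and CTCF hold no interval in its region. A pair of H3K27me3 intervals had fold enrichments of 3.17 and 2.60, with −log10 q-values of 1.88 and 1.03, and did not pass. The CpG ratio around its TSS was 0.0923, at percentile 1.58 of coding genes, and 0.641% of the 312 genes with a ratio between 0.05 and 0.1 carried H3K4me3. In contrast to CDX1, the bare ISX start site was therefore like that of nearly all genes of its base composition. The 250 bases upstream of its outermost start site (chr22:35461879-35462128, plus strand, hg19) are given for comparison with CDX1, and hold 1 CpG, again in capitals.
ISX: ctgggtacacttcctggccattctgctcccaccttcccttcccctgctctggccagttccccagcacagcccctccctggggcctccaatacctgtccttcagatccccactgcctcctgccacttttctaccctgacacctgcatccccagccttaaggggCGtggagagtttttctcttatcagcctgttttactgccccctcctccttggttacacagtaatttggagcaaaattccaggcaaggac

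HNF4A (ENSG00000101076, chr20:42984339-43061485, plus strand) has 10 distinct annotated start sites in 2 clusters, and the marks were found at the upstream cluster only. The gene is known to use an upstream and a downstream promoter in a tissue-dependent manner, which gives proteins that differ at the amino terminus. The 3 upstream start sites, including the canonical TSS, lie within 106 bp and share an H3K4me3 interval of 918 bp at 7.92-fold (−log10 q-value 13.7). H3K9Ac covered the same place at 6.92, and H3K4me1 at 3.58 with a −log10 q-value of 2.46, below the limit. Both promoter marks were past the limits but weak: the H3K4me3 fold enrichment was at percentile 1.96 of marked coding genes and that of H3K9Ac at percentile 2.32. The TSS of the antisense RNA R3HDML-AS1 is 514 bp upstream and lies within the H3K4me1 interval there. The H3K4me3 and H3K9Ac intervals do not contain it but lie within 1 kb of it. Their signal cannot be divided between the genes. The 7 downstream start sites, beginning 45540 bp from the canonical TSS, had no interval of any mark within 1 kb, deposited or past the limits.

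The 250 bases upstream of the first start site of both HNF4A clusters are printed. They hold the same number of CpG, 8 each in capitals, yet the clusters differ in the marks. Other start sites had 11 in the upstream cluster, and from 8 to 15 in the downstream cluster. The upstream stretch is chr20:42984089-42984338 and the downstream stretch chr20:43029629-43029878, both on the plus strand of hg19. The CpG ratio over the wider window was 0.368 at the canonical TSS and 0.334 at the first downstream TSS. Of the 434 coding genes with a ratio between 0.35 and 0.4, 12.2% carried H3K4me3 at the TSS. GGGCGG was present in both 250-base windows and TATAAA in neither.
HNF4A upstream: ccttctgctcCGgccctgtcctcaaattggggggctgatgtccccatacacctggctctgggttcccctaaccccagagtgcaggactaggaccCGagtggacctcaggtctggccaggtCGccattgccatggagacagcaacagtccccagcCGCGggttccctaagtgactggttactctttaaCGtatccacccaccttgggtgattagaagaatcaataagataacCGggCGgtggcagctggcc
HNF4A downstream: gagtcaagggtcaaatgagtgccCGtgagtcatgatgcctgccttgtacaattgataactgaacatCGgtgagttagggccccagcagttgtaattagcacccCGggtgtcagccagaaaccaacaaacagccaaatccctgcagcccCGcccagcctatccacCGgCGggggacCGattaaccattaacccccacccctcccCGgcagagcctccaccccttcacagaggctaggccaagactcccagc

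Inside HNF4A, CTCF was enriched in intron 1, between the clusters of start sites. The CTCF interval from 28497 to 29206 bp downstream of the canonical TSS had a fold enrichment of 14.7. The next, from 30589 to 33350 bp, had 12 and was unusually wide for CTCF at 2762 bp, percentile 98.7 of CTCF intervals past the limits. H3K9Ac (3.64) and H3K4me1 (3.71) intervals at the far end of that wide interval did not pass. The antisense RNA HNF4A-AS1 spans this stretch. Beyond the downstream start sites, an H3K4me1 interval of 3183 bp passed the limits at 5.47 over exon 3 and the introns beside it, at chr20:43035080-43038262, where MIR3646 is annotated. An H3K9Ac interval within the same stretch, at 4.05, did not.

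HNF4G, the paralogue of HNF4A (ENSG00000164749, chr8:76320149-76479069, plus strand), also had marks at its upstream start sites and none at the others. Here the canonical TSS is the inner one, and none of the 6 lists holds an interval within 1 kb of it. The 3 outer start sites, 131955 to 131833 bp upstream, shared intervals of H3K4me3 at 16.9, H3K9Ac at 14.5 and H3K4me1 at 6.95, all past the limits. The CpG ratio also differed between them, at 0.732 to 0.660 at the outer start sites and 0.0329 at the canonical one, percentile 0.132 of coding genes. None of the 76 genes with a ratio below 0.05 had H3K4me3. Counting canonical start sites alone therefore leaves HNF4G unmarked, although its region holds a promoter with all 3 active marks. CTCF passed the limits upstream of the gene, at chr8:76313980-76315976 (10.5), and within it, at chr8:76395396-76396212 (13.4).

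KLF4 and KLF5 had CpG-rich start sites with H3K4me3 in the middle range of marked genes. KLF4 (ENSG00000136826, chr9:110247133-110252763, minus strand) had H3K4me3 at 23.6 in an interval of 2544 bp, which contained all 6 annotated start sites, together with H3K9Ac at 15.6 and H3K4me1 at 5.01. The H3K4me3 fold enrichment was at percentile 55.1 and its width at percentile 73.1 of marked genes. A long non-coding RNA, ENSG00000289987, starts within the same intervals on the other strand, and the signal cannot be divided between the genes. The only CTCF interval past the limits (13.7) lay from 5099 to 5724 bp downstream of the TSS, just past the end of the gene.

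KLF5 (ENSG00000102554, chr13:73629114-73651679, plus strand) had a similar H3K4me3 level over a wider stretch, 25.6 in 3141 bp, with the width at percentile 89.3 of marked genes. Its H3K9Ac interval was 8288 bp wide, at percentile 94.3 for width, but had a fold enrichment of 10.8, at percentile 28.0. H3K4me1 lay to the side of the TSS: the interval past the limits (5.0) ended 283 bp upstream, and another one that began 1740 bp downstream (3.78) did not pass. The outer start site of KLF5, 4029 bp upstream, was in the H3K9Ac and H3K4me1 intervals, while the H3K4me3 interval close to it had a fold enrichment of 3.41 and did not pass. Further H3K4me1 intervals passed in intron 3 (3.74) and from 21261 to 25029 bp downstream of the TSS, beyond the gene (4.69). KLF5 had the most intervals deposited, 13, but no CTCF interval past the limits, its single deposited one, over exon 1, being at 5.43.

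KLF4 and KLF5 had the highest CpG ratios of the 8 genes, 1.03 and 0.955, at percentiles 99.2 and 95.2 of coding genes. In both of their bins of the ratio, 88.8% of genes carried H3K4me3. GGGCGG occurred in the 250 bases upstream of both, and TATAAA in neither.

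ELF3 had by far the widest H3K4me1 interval of the 8 genes. The gene (ENSG00000163435, chr1:201977073-201986311, plus strand) lay entirely inside a single H3K4me1 interval of 32030 bp, from 6021 bp upstream to 26008 bp downstream of the canonical TSS, with a fold enrichment of 7.21. This width was at percentile 99.9 of all H3K4me1 intervals past the limits, and the interval covered 77.4% of the region searched. The other H3K4me1 intervals past the limits at these genes were between 519 and 4259 bp wide. H3K9Ac was also broad, with an interval of 6849 bp at 8.5 over the TSS and another of 10097 bp downstream, whose fold enrichment of 5.32 passed but whose −log10 q-value of 8.14 did not. H3K4me3 was narrow and modest, 13.4 in 1610 bp, at percentile 12.5 of marked genes for fold enrichment. So ELF3 ranked low among marked genes by the fold enrichment of its promoter marks (H3K9Ac at percentile 10.6) and high by that of H3K4me1 (percentile 93.0). By width, the H3K9Ac interval over the TSS ranked high, at percentile 91.1 of marked genes. How fold enrichment depends on the width of an interval was not tested.

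Several transcripts share the ELF3 start region. The antisense RNA ELF3-AS1 starts 124 bp upstream on the other strand and ENSG00000249007 starts 783 bp downstream, and both start sites lie inside the H3K4me3, H3K9Ac and H3K4me1 intervals. The outer ELF3 start site, 2642 bp upstream, had an H3K4me3 interval of 4.23, which did not pass. ELF3 was also the only one of the 8 genes with CTCF past the limits within 1 kb of its canonical TSS (13.8, from 1437 to 391 bp upstream). The state of H3K4me3, H3K9Ac, H3K4me1 and CTCF without the other 2 marks was found at the TSS of 9.07% of coding genes. Further CTCF intervals of 11.6 and 6.79 lay upstream, in the neighbouring gene RNPEP or its 3′ flank. The CpG ratio at the ELF3 TSS was 0.271, and 6.21% of the 853 genes with a ratio between 0.25 and 0.3 had H3K4me3. ELF3 and HNF4A were thus marked in a range of CpG where few genes are, the reverse of CDX1. TATAAA was found in the 250 bases upstream of ELF3, and GGGCGG was not.

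**Figure D2:**
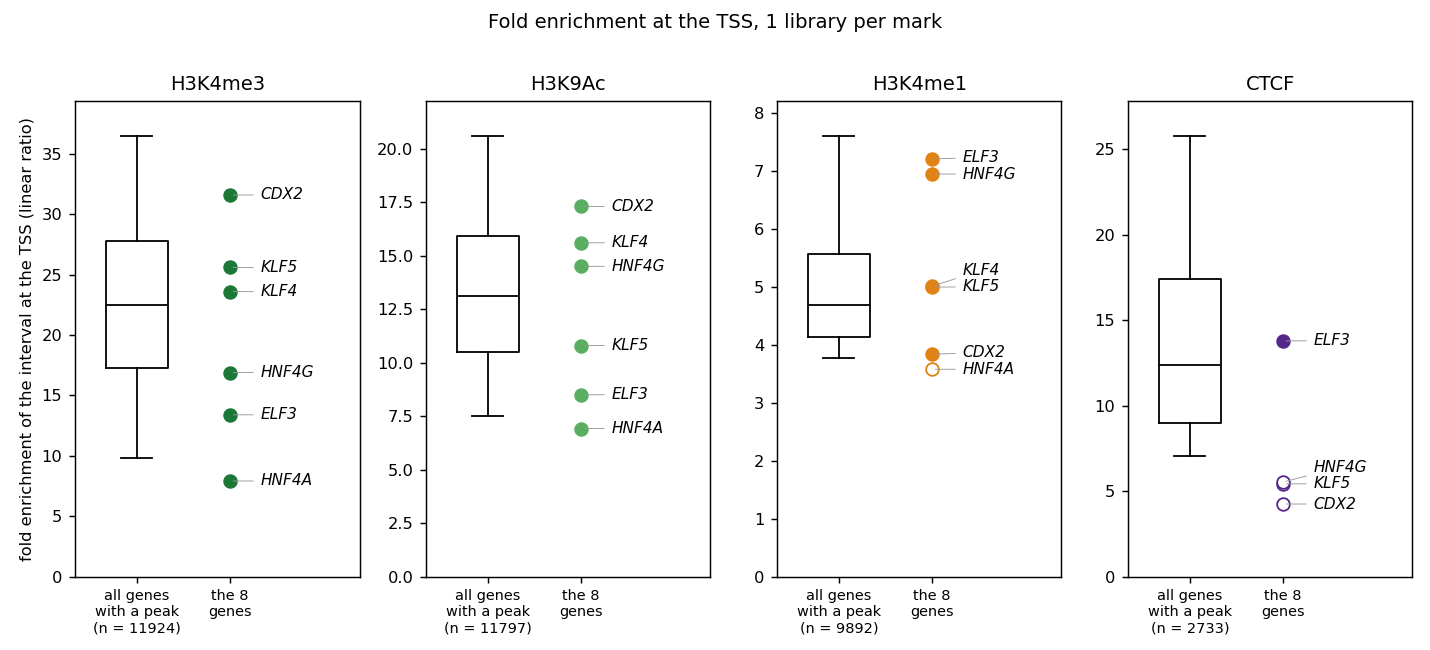
Fold enrichment, a linear ratio, of the interval at the TSS for H3K4me3, H3K9Ac, H3K4me1 and CTCF. Boxes give the median and middle 50% of all coding genes with an interval past the limits, and whiskers percentiles 5 and 95. Points are those of the 8 genes with an interval there, filled where past the limits and open where deposited but not past. HNF4G is shown at its outer start sites, others at the highest of their start sites. CDX1 and ISX have no point in any panel, and a gene without an interval of a mark has none for that mark. CDX2 is highest for H3K4me3 at 31.6 and H3K9Ac at 17.3, HNF4A is lowest for both at 7.92 and 6.92, and ELF3 is highest for H3K4me1 at 7.21.

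Set in order, the H3K4me3 fold enrichment at the start sites was 31.6 at CDX2, 25.6 at KLF5, 23.6 at KLF4, 16.9 at the outer HNF4G sites, 13.4 at ELF3 and 7.92 at HNF4A. The median over marked coding genes was 22.5, with the middle 50% between 17.3 and 27.8. HNF4G, ELF3 and HNF4A were below that range and CDX2 above it. For H3K9Ac the order was CDX2, KLF4, HNF4G, KLF5, ELF3 and HNF4A, from 17.3 to 6.92 around a median of 13.1. This is an order of fold enrichment and not of width. The intervals of KLF5 (8288 bp) and ELF3 (6849 bp) were the widest of them, and that of HNF4A (1076 bp) the narrowest. For H3K4me1 the order was different, with ELF3 (7.21) and HNF4G (6.95) ahead of KLF4 (5.01), KLF5 (5.0) and CDX2 (3.84), around a median of 4.69. All 6 H3K4me3 intervals past the limits at these genes overlapped an H3K9Ac interval past the limits, as 95.3% of all H3K4me3 intervals did. Of the 6, 5 overlapped H3K4me1 (80.2% of all), and the exception was HNF4A.

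**Figure D3:**
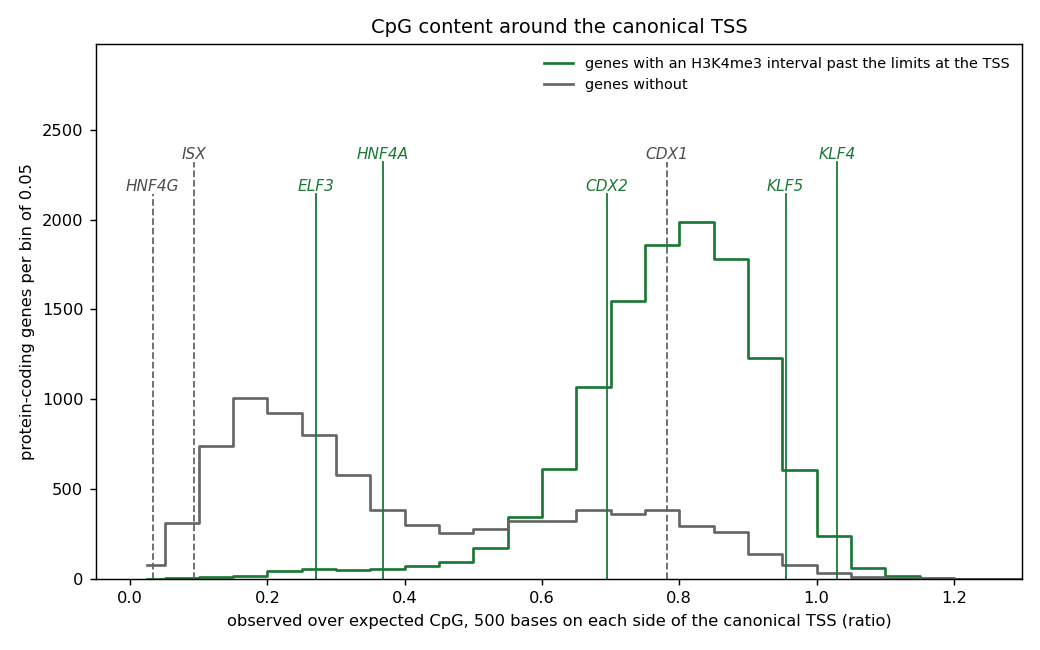
Number of protein-coding genes (vertical axis) by observed over expected CpG ratio around the canonical TSS (horizontal axis, bins of 0.05), for genes with an H3K4me3 interval past the limits at the TSS (green) and without (grey). Vertical lines give the 8 genes, solid green where marked and dashed grey where not: ELF3 at 0.271 and HNF4A at 0.368 are marked among mostly unmarked genes, and CDX1 at 0.782 is unmarked among mostly marked ones.

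Over all coding genes the median CpG ratio was 0.799 in 11916 genes with H3K4me3 at the TSS and 0.319 in 8224 genes without, on the 20140 genes for which it could be computed. The median of the 8 genes was 0.531, and 5 of them were below the median of all genes, 0.723. CDX2, KLF4, KLF5, ISX and the canonical HNF4G TSS were in the state of most genes of their composition, and CDX1, HNF4A and ELF3 were not.

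H3K36me3 was deposited over 4 of the 8 genes, beside 65.9% of coding genes, and none of these intervals passed the limits (0.789% of coding genes have 1 that does). The 4 genes were those with all 3 active marks at the canonical TSS. The fold enrichment was 4.55 over exons 3 to 5 of KLF4, 4.37 over exons 3 to 9 of ELF3, 4.09 in an interval of 16767 bp over exons 2 to 4 of KLF5, and 3.02 over exons 2 to 3 of CDX2. Those of KLF4, ELF3 and KLF5 were at percentiles 97.9, 97.3 and 95.5 of the deposited H3K36me3 list, and that of CDX2 at percentile 55.1. A further interval upstream of ELF3 (3.49) lay over RNPEP. The list holds no interval in the regions of CDX1, HNF4A, HNF4G and ISX.

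H3K27me3 was past the limits in the region of 0 of the 8 genes, beside 3.94% of coding genes. At the caller's own cutoff it was deposited at 4 of them, CDX1, HNF4A, KLF5 and ISX, beside 30.0% of coding genes. The 6 intervals were short, between 381 and 582 bp, with fold enrichments from 2.56 to 3.17, and the highest −log10 q-value was 1.88. The unmarked start sites of CDX1 and ISX, the canonical HNF4G TSS and the downstream cluster of HNF4A had neither active marks nor Polycomb methylation at these limits. Of the H3K27me3 list 2.81% passed, and the intervals at these genes are among the others. The absence of an H3K27me3 interval past the limits therefore says little.

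CTCF intervals past the limits were 10 in number, at CDX1, CDX2, HNF4A, HNF4G, KLF4 and ELF3, with fold enrichments from 6.79 to 25.1. Of these, 4 overlapped an H3K4me1 interval past the limits, beside 27% of all CTCF intervals past them. The 12-base core of the CTCF recognition sequence, searched on both strands, was found exactly in 3 of the 10, at CDX1, HNF4G and ELF3, and in 22.4% of all 24536 such intervals (95% Wilson interval 21.9 to 22.9%, counting error only). The strongest of them, downstream of CDX2, had no core with up to 1 mismatch, which says only that these letters were not in it. The cores at CDX1 and ELF3 are shown because they lie upstream of a bare and of a marked start site respectively. Each is given as 30 bases of the plus strand of hg19 with the core in capitals, at chr5:149541345-149541374, where the core starts 4987 bp upstream of the CDX1 TSS, and chr1:201978833-201978862, where it starts 873 bp upstream of the ELF3 TSS.
CDX1 core: ccaggagtgCCAGCAGGTGGCggccccagc
ELF3 core: ggcttctgaCCACTAGAGGGCagcagaagg

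Other transcription factors of the intestine were marked at least about as often as all genes, whereas a list of enterocyte genes was mostly unmarked. In a list of 24 further factors, 16 had H3K4me3 at the TSS, 14 H3K9Ac and 18 H3K4me1 (66.7, 58.3 and 75%, beside the 59.1, 58.5 and 49.1% of all coding genes), with the highest H3K4me3 fold enrichments at SOX9 (30.6), a factor of crypt progenitors, PPARG (25.7), KLF6 (23.9) and TCF7L2 (21.1), the nuclear partner of β-catenin. H3K27me3 passed at 2 of them, ATOH1 (4.29), the determinant of secretory cells, and ONECUT2 (4.31), both of which also had H3K4me3. That is 8.33% of the list, beside 1.22% of all coding genes. CTCF passed at 5 of the 24 (20.8%, beside 13.6%), and H3K36me3 at 0 (beside 0.298%).

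Of 32 enterocyte genes, many of them known targets of CDX and HNF4 factors, 4 had H3K4me3 at the TSS and 4 had H3K9Ac, 12.5% each beside 59.1 and 58.5% of all coding genes, and 6 had H3K4me1, 18.8% beside 49.1%. The other marks were nearer to the shares of all genes, with CTCF at 3 (9.38%, beside 13.6%) and H3K27me3 and H3K36me3 at 0 (beside 1.22 and 0.298%). The 4 with H3K4me3 were CA2, a carbonic anhydrase (38.7), SCARB1, a lipid and carotenoid receptor known to be repressed by ISX (35.4), DPP4, a brush-border peptidase (14.4), and SLC15A1, a peptide transporter (9.16). The remaining 28 included VIL1, CDH17, FABP1, APOA4, SI, LCT and BCO1, the carotenoid-cleaving enzyme that ISX represses. The composition of these promoters moved with the marks: the median CpG ratio was 0.256 over the list, below the median of all genes in 28 of 32, and between 0.713 and 0.878 at the 4 marked genes. For the 24 factors the median ratio was 0.732. Its part in the difference between the lists was not tested. The enterocyte list was not split by gut region or cell type, and whether its genes are active in normal colon was not examined.

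**Figure D4:**
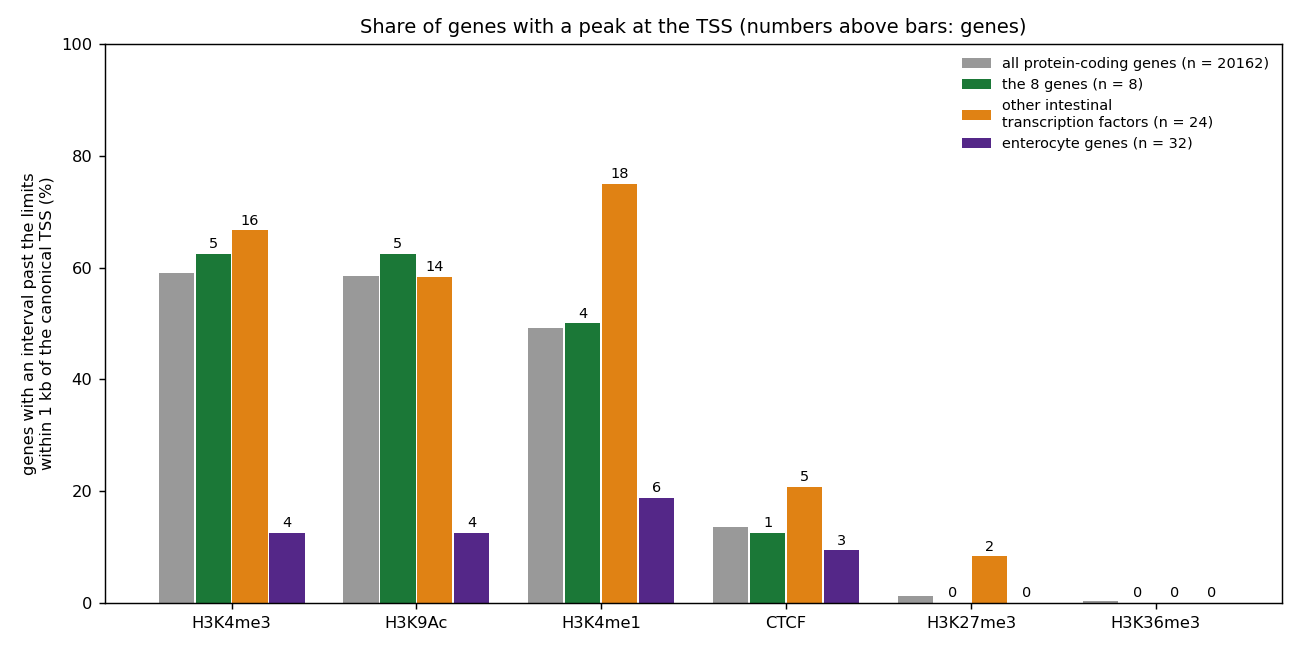
Percent of genes with an interval past the limits within 1 kb of the canonical TSS (vertical axis, from 0 to 100%), per mark, for all 20162 coding genes, the 8 genes, 24 other intestinal transcription factors and 32 enterocyte genes, with the number of genes above each bar. The 8 genes reach 62.5% for H3K4me3 against 59.1% of all genes, while the enterocyte genes reach 12.5%.

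The protein-coding genes whose 6-mark pattern was most like each of the 8 were found by Euclidean distance over log2(1 + the highest deposited fold enrichment in the gene region). For CDX1 they were FER1L6 and BTBD16 (distances 0.275 and 0.279), for CDX2 LOXL2 and AMZ2 (0.205 and 0.218), and for ISX LY6L and RGS8 (0.0173 and 0.0208). For HNF4A they were PTPN5 and BMPER (0.224 and 0.256), and for HNF4G TPPP2 and TMEM61 (0.197 and 0.241). For KLF4 they were NOSIP and AURKA (0.0936 and 0.094), for KLF5 SNRPB2 and MYCBP2 (0.253 and 0.307), and for ELF3 ACTN4 and NR1D1 (0.227 and 0.237). None of these is another of the 8 genes, which says little, since the nearest were sought among all protein-coding genes. The small distances at ISX come with few intervals, since 4 of its 6 values were 0.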

How the data were processed

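PIXUL-ChIP-seq libraries of HCT116 cells, 1 per antibody, were analysed from the broad-peak lists the authors deposited, for 6 of the 7 libraries; H3K27Ac was not analysed here. The authors aligned reads to hg19 with BWA and called broad intervals per library at a cutoff of 0.1. The methods name MACS2 as the caller, and the submitters' processing notes name BWA 0.7.12 and MACS 1.4.2. Each list holds, as deposited, a fold enrichment, a −log10 p-value, a −log10 q-value and a score, which was not used. The fold enrichment is a linear ratio over background, by the methods relative to input. The methods give the limits for the histone marks, and CTCF was treated with the stricter group. The interval names of the H3K27me3 list carry a run name that does not name the cell line, so its assignment rests on the label.

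Gene bodies, exons and start sites were taken from GENCODE 44 on GRCh37, whose 24 chromosomes of the lists match hg19, with 0 intervals past a chromosome end. Of 20162 protein-coding genes, 19881 have a canonical transcript, and the 5′ end served for the others. Overlaps needed at least 1 bp. The CpG ratio was computed over 500 bases on each side of the TSS, and motifs were searched in the 250 bases upstream. The 8 genes and all lists were chosen with earlier results of these data known. All 8 genes were to be named, and with values from each list up to 4 genes by H3K4me3 fold enrichment and up to 4 with H3K27me3, and per gene the 2 nearest patterns. Of the markers of other cells, PECAM1 was not in the annotation used.

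With no replicate, no test was made and the depth is unknown. The number and width of intervals can depend on it. Overlaps were tested on simulated data, and the counts for 48 gene regions were checked against bedtools 2.31.1, with 0 differences. Python 3.11.15, numpy 2.4.6, pyfaidx 0.9.0.4, matplotlib 3.10.9 and samtools 1.23.1 were used. The alternatives were all deposited intervals, a fold limit multiplied by 1.5, the limits exchanged between the groups of marks, the gene body alone or with 50 kb, at least 50% of an interval inside the region, the TSS itself or 5 kb around it, any annotated TSS, and 1 mismatch in the CTCF core.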

Additional observations from a re-analysis of the deposited data

How the results depend on the processing

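Of 86 recomputed counts over the 8 genes and the lists, 56 stayed within 1.5 times and 30 moved. With all deposited intervals the numbers over the 8 regions became 10 for H3K4me3, 16 for H3K9Ac, 21 for H3K4me1, 5 for H3K36me3, 6 for H3K27me3 and 18 for CTCF. At the TSS, H3K36me3 was then at 1 gene and CTCF at 3. Among the other intestinal factors H3K27me3 was then at 6 and CTCF at 11, and among the enterocyte genes H3K9Ac was at 7, H3K36me3 at 1, H3K27me3 at 1 and CTCF at 6. With the limits exchanged between the groups of marks the intervals were 13 for H3K9Ac, 2 for H3K4me1, 3 for H3K36me3 and 16 for CTCF, and at the TSS H3K4me1 was at 1 gene, H3K36me3 at 1 and CTCF at 3. The gene body alone left 7 H3K4me1 and 4 CTCF intervals, and 50 kb around it gave 10 of H3K4me3, 13 of H3K9Ac, 22 of H3K4me1 and 22 of CTCF. The CTCF interval near the ELF3 TSS does not contain it, so 0 genes had CTCF at the TSS itself, and 2 had it within 5 kb. With 1 mismatch, 6 of the 10 CTCF intervals held the core, beside 65.9% of all. Of the 8 genes, H3K4me3 was at the TSS of 5 to 6 and H3K9Ac of 4 to 6 under the alternatives run, with HNF4A lost for H3K9Ac at the fold limit multiplied by 1.5. Of 48 recomputed counts per gene, 19 moved; those of CDX1 and ISX ranged from 0 to 7 and from 0 to 4. No paired analysis was possible because there is 1 library per antibody. The depth of the libraries, and with it the reach of the H3K36me3 and H3K27me3 lists, is unknown.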
